A study of Homo sapiens with 6 samples.

Results

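The genes described here are the hnRNP genes, the SR splicing factor genes and the genes of the SF3A and SF3B complexes, measured by mRNA sequencing in HepG2 cells with and without knockdown of KIF11. Members were all genes of the deposited count table whose symbol starts with HNRNP, with SRSF and a digit, or with SF3A or SF3B and a digit, which gave 46 of 20030 genes. Of these, 25 were HNRNP genes, 12 were SRSF genes and 9 were SF3A or SF3B genes. HepG2 is an established line of human hepatoma cells. The 3 sh-ctrl libraries came from HepG2 cells carrying a control short hairpin RNA, and the 3 sh-KIF11 libraries from HepG2 cells carrying a hairpin against KIF11, the spindle motor kinesin that pushes the poles of the mitotic spindle apart. Hairpins were cloned in the lentiviral vector pLKO.1, so all 6 libraries came from virus-infected cells, and 1 knockdown hairpin group was labelled. The labels give no time after infection and do not say whether the libraries of a group came from separate cultures, so the p-values below measure the spread between these libraries, which may be technical.

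Splicing removes introns from pre-mRNA in the spliceosome, which is assembled anew on each intron from small nuclear ribonucleoproteins. The SF3A and SF3B complexes are parts of the U2 particle, and SF3B1 grips the RNA around the branch point adenosine. SR proteins, encoded by the SRSF genes, bind exonic enhancers and mostly promote the use of nearby splice sites, whereas many hnRNP proteins bind silencers and favour exon skipping. Many genes of both families limit their own output by including a poison exon or retaining an intron, which sends the transcript to nonsense-mediated decay.

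The targeted gene KIF11 was counted 1976, 2088 and 2039 times in controls, and 1448, 1478 and 1240 times after knockdown. All 3 knockdown libraries lay below all 3 controls, and the level was 0.595 of that in sh-ctrl (log2 fold change -0.75 ± 0.06 SE, adjusted p = 4.22e-15 by the quasi-likelihood test of edgeR, Benjamini-Hochberg adjusted over all genes). Totals ran from 18167773 to 19583282 counts per library. The third control library stood somewhat apart, with a chi-square per degree of freedom of 6.25 and 8.11 against the other controls, where the other pairs within a group had 2.67 to 3.50 and pairs across groups 84.0 to 102. The hepatocyte and hepatoma marker list (ALB, AFP, APOA1, APOB, TTR, SERPINA1) summed to between 27350 and 28470 CPM in sh-ctrl and between 13150 and 14230 in sh-KIF11, with 5 of 6 genes called lower. Of the markers of other cell types, the endothelial list (PECAM1, CDH5, VWF) stayed below 5 CPM, between 3.10 and 3.56 in sh-ctrl and between 4.69 and 4.98 in sh-KIF11. The fibroblast list (COL1A1, COL3A1, DCN, PDGFRB) summed to between 2.55 and 3.70 CPM and between 1.40 and 2.04 CPM, with DCN at 0 in all libraries. The part of these differences in the results below was not tested.

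With TMM normalisation, which centres the typical gene on no change, the splicing factor genes shifted by small steps, and more of them were lower than higher, but that balance turned round when the libraries were scaled by their totals. Of the 46 members, 41 passed the filter on low counts. In sh-KIF11, 8 of these 41 were higher and 24 were lower than in sh-ctrl at an adjusted p under 0.05 by edgeR's quasi-likelihood test, so that 32 of 41 (78.0%) were called, against 69.1% of the 12369 genes tested. By direction, 19.5% of the members and 34.4% of all tested genes were higher, and 58.5% of the members and 34.7% of all tested genes were lower. The 3 sh-KIF11 libraries did not overlap the 3 sh-ctrl libraries in TMM-scaled CPM for 34 members, beside 71.2% of all tested genes. Without sh-ctrl replicate 3 the members numbered 10 higher and 26 lower. Step sizes were modest: the median absolute log2 fold change was 0.21 over the members and 0.33 over all tested genes. The background of all tested genes was not matched to the members in abundance, which bears on both shares called and step sizes. At least 1.25-fold changes were called for 10 members, 3 higher and 7 lower, where 48.6% of all genes passed that limit, and SRSF12 alone passed 2-fold, where 11.7% of all genes did. Because the RNA was extracted from bulk cells, fewer cells expressing a gene and less of its RNA per cell cannot be told apart.

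The scaling decided the direction of many members. TMM factors lay between 0.922 and 0.926 in sh-ctrl and between 1.08 and 1.09 in sh-KIF11. When library totals alone set the scale, 16 members (39.0%) were called higher and 6 (14.6%) lower, where 53.5% of all tested genes were higher and 19.2% lower, and the median over all tested genes moved from 0.00 to 0.24. Both member shares thus lay below those of all genes on this scale. Upper-quartile factors gave 11 members (26.8%) higher and 16 (39.0%) lower, beside 40.5% and 28.8% of all tested genes. With limma on the deposited FPKM values, with 1 added before the logarithm, 13 members (31.7%) were higher and 8 (19.5%) lower, beside 45.6% and 21.0% of all tested genes. The members' median log2 fold change was -0.16 with TMM and 0.07 with library totals, which in both cases lay 0.17 below the median of all tested genes. A change of scale factors moves all genes by nearly the same step (median 0.23), so this distance had to stay the same. On the FPKM scale the members' median lay 0.10 below that of all tested genes with 1 added before the logarithm and 0.15 below with 0.1 added. No member was called in opposite directions by any pair of the 7 scalings and tools compared. This was rare in general, at 22 of all 12369 tested genes. Called in the same direction by all 7 were 14 of the 41 members (34.1%), against 50.1% of all tested genes. These 14 comprised 8 that rose (SF3B1, SRSF5, SRSF6, SRSF8, SRSF10, SRSF11, SRSF12 and HNRNPA1L2) and 6 that fell (SF3B5, SF3A2, SRSF9, HNRNPL, HNRNPM and HNRNPD). By direction these were 19.5% and 14.6% of the members, beside 31.7% of all tested genes higher and 18.4% lower in all 7. Requiring all 7 together was decided after the values had been seen. The 7 are not independent, since TMM, RLE and DESeq2 gave nearly the same member median (-0.16 each).

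**Figure D1:**
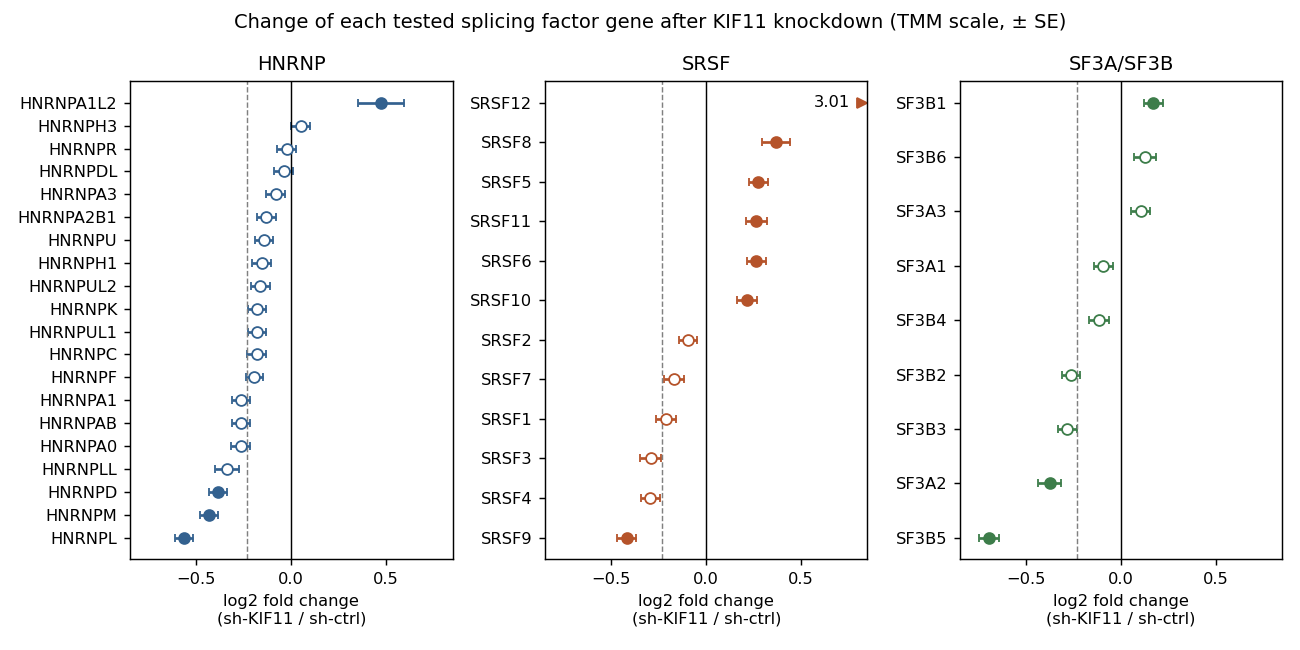
Log2 fold change of each tested member (x axis, sh-KIF11 over sh-ctrl, TMM scale, error bars ± SE of the edgeR fit) in the HNRNP, SRSF and SF3A/SF3B families (y axis, genes). Filled points were called in the same direction by all 7 scalings, the solid line marks no change with TMM and the dashed line marks where no change would lie with library totals; SRSF12, at 3.01, is drawn as an arrow at the edge, and most open points lie between or near the lines.

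Within the core U2 complexes SF3A and SF3B, SF3B1 rose while SF3B5 fell in each of the 7 scalings. SF3B1 encodes the large scaffold subunit of SF3B that holds the branch site, and SF3B5 encodes its smallest subunit. The annotated promoter windows of the pair are printed here because these members of one complex moved apart. They come from RefSeq (GRCh38.p14) and run from 250 bases before to 50 after the transcript start, with capitals marking matches to CACGTG (an E-box), CCAAT or GGGCGG (a GC box) on either strand. The SF3B1 window is chr2:197435044-197435343 and the SF3B5 window is chr6:144095524-144095823, both on the minus strand and written 5′ to 3′.
SF3B1: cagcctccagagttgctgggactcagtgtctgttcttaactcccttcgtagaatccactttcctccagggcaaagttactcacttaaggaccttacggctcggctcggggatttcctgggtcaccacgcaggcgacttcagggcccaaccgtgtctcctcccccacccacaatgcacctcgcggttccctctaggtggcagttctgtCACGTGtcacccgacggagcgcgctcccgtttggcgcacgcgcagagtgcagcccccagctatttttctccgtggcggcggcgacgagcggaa
SF3B5: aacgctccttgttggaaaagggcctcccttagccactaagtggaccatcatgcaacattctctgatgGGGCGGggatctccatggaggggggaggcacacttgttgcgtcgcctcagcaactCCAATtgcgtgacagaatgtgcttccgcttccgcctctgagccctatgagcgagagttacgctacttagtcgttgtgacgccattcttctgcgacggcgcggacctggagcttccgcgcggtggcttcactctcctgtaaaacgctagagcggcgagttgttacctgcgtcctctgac
The SF3B1 window held 1 E-box, starting 43 bases before the transcript start, and none of the other motifs. The SF3B5 window held a CCAAT box starting at -128 and a GC box starting at -183. A match is a run of letters and was not tested as a binding site.

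SF3B1 (ENSG00000115524, chr2:197389784-197435091, minus strand, GENCODE 29) had 574, 593 and 648 CPM in sh-ctrl and 669, 702 and 671 CPM in sh-KIF11. Every knockdown library was above every control, although the highest control came close. The log2 fold change was 0.17 ± 0.05 (SE), with an adjusted p of 0.00257 by edgeR's quasi-likelihood test. SF3B5 (ENSG00000169976, chr6:144094881-144095573, minus strand) had 166, 170 and 177 CPM in sh-ctrl and 109, 99.0 and 108 CPM in sh-KIF11. The groups lay far apart, and the knockdown level was 0.617 of the control level (log2 fold change -0.70 ± 0.05 SE, adjusted p = 2.13e-15 by edgeR's quasi-likelihood test). SF3B5 was the most abundant of its family per length of transcript, with a mean of 266 FPKM in sh-ctrl and 195 FPKM in sh-KIF11. The ratio of SF3B1 to SF3B5 counts within a library needs no scaling between libraries. It was 3.46, 3.50 and 3.67 in sh-ctrl, compared with 6.15, 7.09 and 6.21 in sh-KIF11, a mean of 3.54 ± 0.11 (SD, n = 3) against 6.48 ± 0.53 (SD, n = 3) and a 1.83-fold difference. This pair was chosen after its values were seen, so the ratio is given without a test. Any shift that goes with GC content or length of the transcript remains in such a ratio.

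Of the other SF3 genes, SF3A2, SF3B3 and SF3B2 were lower with TMM. SF3A2, a subunit of SF3A, had 93.0, 94.2 and 81.7 CPM in sh-ctrl and 67.6, 66.3 and 73.2 CPM in sh-KIF11, without overlap (log2 fold change -0.38 ± 0.06 SE, adjusted p = 4.99e-07 by edgeR's quasi-likelihood test). SF3A2 shares 12.7% of its exonic bases with PLEKHJ1 on the other strand, and the strand setting of the counting is not given in the sources used here. SF3B3, a propeller-shaped scaffold of the complex, had 304, 300 and 284 CPM in sh-ctrl and 244, 244 and 241 CPM in sh-KIF11. SF3B2, which contacts the pre-mRNA near the branch site, had 398, 404 and 373 CPM in sh-ctrl and 328, 317 and 334 CPM in sh-KIF11. Both were lower without overlap on the TMM scale, at log2 fold changes of -0.28 and -0.26 with adjusted p-values of 2.00e-06 and 7.26e-06 by edgeR's quasi-likelihood test, but with library totals the changes were -0.05 and -0.03 and were not called. SF3A1, SF3A3, SF3B4 and SF3B6 did not pass with TMM, with log2 fold changes of -0.09, 0.10, -0.12 and 0.13. For SF3A3, SF3B4 and SF3B6 the adjusted p-values were 0.0587, 0.0563 and 0.0577 by edgeR's quasi-likelihood test, just above 0.05. The groups did not overlap for SF3A3 and SF3B4. SF3A3 and SF3B6 were called higher with upper-quartile factors, library totals and both limma fits on FPKM, and SF3A3 also by DESeq2. SF3A1 was called higher with library totals, and SF3B4 was called in none of the 7 scalings. Over the 9 genes, 1 was higher and 4 were lower with TMM, 4 were higher and 2 lower with library totals. Without sh-ctrl replicate 3 the TMM count became 3 higher and 6 lower.

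With TMM the SRSF genes split most evenly of the families, but not with library totals or FPKM. Of the 12 SRSF genes, 6 were higher and 5 were lower in sh-KIF11 with TMM by edgeR's quasi-likelihood test. The same 6 were higher in all 7 scalings, whereas of the 5 lower genes only SRSF9 was lower in all 7. This contrast depends on the scales, since those other than TMM, RLE and DESeq2 moved the median of all tested genes up. Lower calls were therefore harder to keep, and over all tested genes 31.7% were higher and 18.4% lower in all 7. Library totals gave 7 higher and 1 lower. SRSF6, known for its part in the splicing of tau, and SRSF5 were higher, while SRSF9, a short SR protein, was lower. The promoter window of SRSF6 (RefSeq, GRCh38.p14, chr20:43457646-43457945, plus strand) is printed as that of the SRSF gene that gained the most percentage points of its family's counts, with GC boxes in capitals.
SRSF6: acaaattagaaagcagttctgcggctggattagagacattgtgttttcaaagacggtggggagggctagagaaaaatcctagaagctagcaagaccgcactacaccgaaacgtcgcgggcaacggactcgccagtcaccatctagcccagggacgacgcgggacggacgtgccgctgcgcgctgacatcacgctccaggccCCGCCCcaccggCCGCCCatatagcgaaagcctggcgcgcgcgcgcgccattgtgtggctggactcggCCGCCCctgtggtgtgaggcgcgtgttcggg
It held 3 GC boxes on the reverse strand, at -49, -37 and 20 relative to the start, and no E-box or CCAAT box.

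SRSF6 had 243, 238 and 256 CPM in sh-ctrl and 303, 296 and 285 CPM in sh-KIF11. All knockdown libraries were above all controls, at a log2 fold change of 0.26 ± 0.05 (SE) and an adjusted p of 8.85e-06 by edgeR's quasi-likelihood test. SRSF5 had 147, 150 and 150 CPM in sh-ctrl and 170, 192 and 179 CPM in sh-KIF11, without overlap (log2 fold change 0.27 ± 0.05 SE, adjusted p = 1.03e-05 by edgeR's quasi-likelihood test). SRSF11, an SR-like protein, had 147, 148 and 170 CPM in sh-ctrl and 195, 188 and 174 CPM in sh-KIF11. Its groups were separated by a narrow gap between sh-ctrl 3 and sh-KIF11 3 (log2 fold change 0.26 ± 0.06 SE, adjusted p = 5.13e-05 by edgeR's quasi-likelihood test). SRSF10, a repressor of splicing when dephosphorylated in heat shock, had 196, 197 and 218 CPM in sh-ctrl and 233, 246 and 231 CPM in sh-KIF11. Its groups were separate as well, with a log2 fold change of 0.21 ± 0.05 (SE).

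SRSF8, a close relative of SRSF2, had 29.9, 31.6 and 31.8 CPM in sh-ctrl and 39.2, 42.6 and 38.9 CPM in sh-KIF11, without overlap (log2 fold change 0.37 ± 0.07 SE) and with an adjusted p of 2.60e-05 by edgeR's quasi-likelihood test. Its coding sequence matched that of SRSF2 at 84.7% of 654 aligned bases, with 100 differences. Whether reads of the pair were split in counting was not tested. SRSF2 is an exonic enhancer binding protein and had the highest mean FPKM of the SRSF genes over all 6 libraries, although SRSF9 was above it in sh-ctrl, at 127 against 117 FPKM. It had 329, 308 and 329 CPM in sh-ctrl and 299, 313 and 294 CPM in sh-KIF11, with overlapping groups and no call with TMM (log2 fold change -0.09 ± 0.05 SE, adjusted p = 0.0811 by edgeR's quasi-likelihood test). With library totals it was called higher, at 0.14. SRSF2 shares 36.7% of its exonic bases with MFSD11 on the other strand.

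SRSF12 was the sole member with a large step, and it rests on few reads. Reads numbered 0, 1 and 8 in the sh-ctrl libraries, compared with 20, 36 and 30 in the sh-KIF11 libraries. All knockdown libraries were above all controls, but sh-ctrl 3 held most of the control reads. The log2 fold change was 3.01 ± 0.52 (SE, adjusted p = 2.89e-06 by edgeR's quasi-likelihood test), and 5.37 without sh-ctrl replicate 3. Its level stayed low, at a mean of 0.326 FPKM in sh-KIF11.

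SRSF9 had 161, 157 and 156 CPM in sh-ctrl and 115, 120 and 119 CPM in sh-KIF11. The groups were far apart relative to their spread (log2 fold change -0.42 ± 0.05 SE, adjusted p = 9.68e-10 by edgeR's quasi-likelihood test). SRSF9 shares 46.2% of its exonic bases with GATC on the other strand, whose log2 fold change was -0.20. SRSF4, a long SR protein, had 160, 155 and 150 CPM in sh-ctrl and 126, 129 and 124 CPM in sh-KIF11. SRSF3, the smallest SR protein, which also couples splicing to polyadenylation and export, had 276, 283 and 341 CPM in sh-ctrl and 238, 254 and 242 CPM in sh-KIF11. SRSF1, the founding SR protein, had 439, 481 and 517 CPM in sh-ctrl and 407, 435 and 400 CPM in sh-KIF11. For these 3 genes the controls all lay above the knockdown libraries, with log2 fold changes of -0.30, -0.29 and -0.21 and adjusted p-values of 2.03e-06, 1.74e-05 and 5.35e-04 by edgeR's quasi-likelihood test. With library totals the values were -0.06, -0.06 and 0.02 and none was called, so for SRSF1 the direction turned. For SRSF3 the value was -0.19 without sh-ctrl replicate 3. SRSF1 shares 56.6% of its exonic bases with the gene model AC015813.2 on the same strand. SRSF7, a partner of SRSF3 in export, was lower at -0.17 with TMM and not called at 0.06 with library totals.

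Shares of the counts of a family within one library describe this split without any scaling between libraries. For all 12 SRSF genes the shares of the sh-KIF11 libraries did not overlap those of the sh-ctrl libraries, 6 being higher and 6 lower. For SRSF2 the gap was very narrow, at 13.35% in sh-ctrl 3 against 13.33% in sh-KIF11 3. SRSF6 took 10.5% ± 0.20 of the family's counts in the controls and 13.0% ± 0.42 after knockdown (SD, n = 3). SRSF5 went from 6.38% ± 0.26 to 7.94% ± 0.35, and SRSF9 from 6.77% ± 0.41 to 5.21% ± 0.17. The ratio of SRSF6 to SRSF9 counts was 1.50, 1.52 and 1.64 in sh-ctrl, compared with 2.63, 2.47 and 2.39 in sh-KIF11, a 1.61-fold difference in a pair chosen after the values were seen. Among the 9 SF3 genes, 3 had higher and 4 had lower shares without overlap. Among the 20 tested HNRNP genes, 6 had higher and 6 had lower shares without overlap, so the split is not particular to SRSF. These counts have no counterpart over all tested genes, since shares were taken within families. SF3B1 went from 28.3% ± 1.7 to 33.8% ± 0.93 of the family's counts and SF3B5 from 7.98% ± 0.22 to 5.23% ± 0.28. Shares are tied to each other, since a gain of one gene lowers the others. They also keep any shift that goes with GC content or transcript length.

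**Figure D2:**
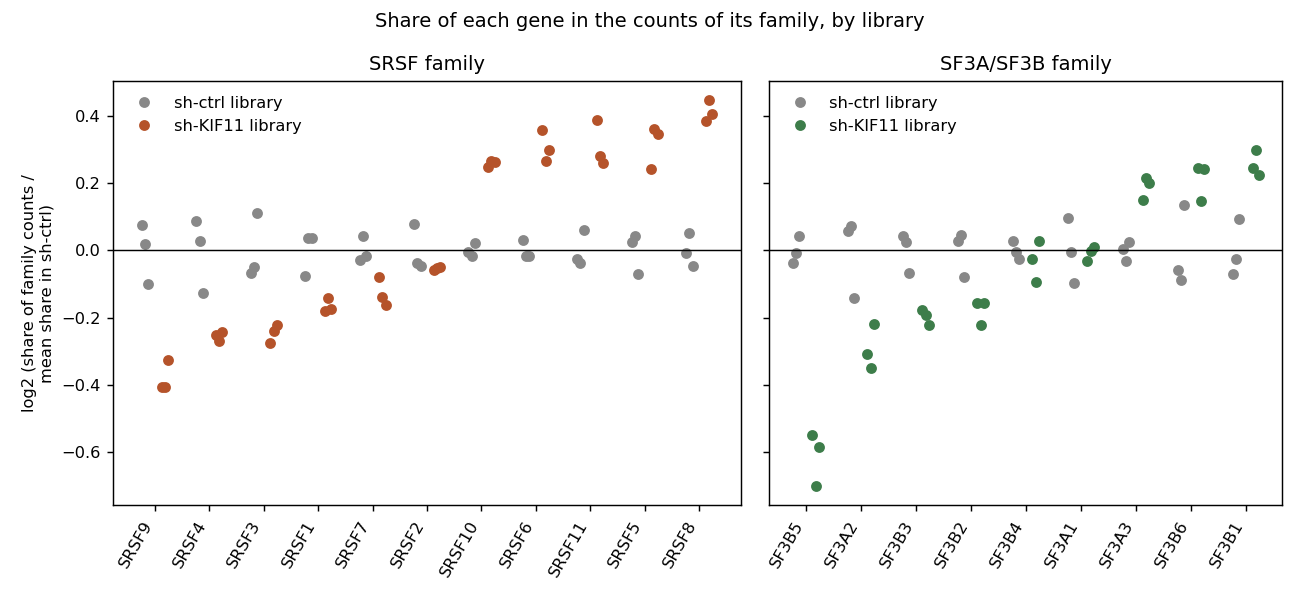
Share of each gene in the summed counts of its family in each library, as the log2 ratio to the mean share in sh-ctrl (y axis), for 11 SRSF genes and 9 SF3A or SF3B genes (x axis). Each point is 1 library, grey for sh-ctrl and coloured for sh-KIF11; SRSF12 is left out because its share was 0 in 1 library, and the coloured points of SRSF9 and SF3B5 lie below all grey points while those of SRSF6, SRSF5 and SF3B1 lie above.

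The hnRNP genes were lower more uniformly on the TMM scale, and they were also the family most dependent on it. Of 20 tested HNRNP genes, 15 were lower and 1 was higher by edgeR's quasi-likelihood test with TMM, while 3 were lower and 5 higher with library totals, and 4 were lower and 3 higher with FPKM. HNRNPL, which binds CA-rich RNA and regulates alternative exons, showed the largest decrease. Its promoter window (RefSeq, GRCh38.p14, chr19:38852298-38852597, minus strand) is printed for that reason, with CCAAT and GC boxes in capitals.
HNRNPL: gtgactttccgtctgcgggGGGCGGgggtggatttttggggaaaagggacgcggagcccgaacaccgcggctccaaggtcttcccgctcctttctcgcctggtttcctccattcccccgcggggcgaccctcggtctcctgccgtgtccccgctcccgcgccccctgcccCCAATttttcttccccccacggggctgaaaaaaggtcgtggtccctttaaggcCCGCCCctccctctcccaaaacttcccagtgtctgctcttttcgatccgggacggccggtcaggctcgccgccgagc
The window held a CCAAT box at -80 and GC boxes at -231 and, on the reverse strand, at -27.

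HNRNPL (ENSG00000104824, chr19:38836388-38852347, minus strand, GENCODE 29) had 303, 299.7 and 292 CPM in sh-ctrl and 208, 203 and 194 CPM in sh-KIF11. The groups were widely separated, and the knockdown level was 0.675 of the control (log2 fold change -0.57 ± 0.05 SE, adjusted p = 1.44e-13 by edgeR's quasi-likelihood test). HNRNPM, which binds GU-rich motifs, had 439.9, 462 and 456 CPM in sh-ctrl and 337, 338 and 330.3 CPM in sh-KIF11, without overlap (log2 fold change -0.43 ± 0.05 SE, adjusted p = 1.06e-10 by edgeR's quasi-likelihood test). HNRNPD, also known as AUF1, binds AU-rich elements and promotes mRNA decay. It had 358, 358 and 336 CPM in sh-ctrl and 262, 277 and 267 CPM in sh-KIF11, again without overlap (log2 fold change -0.39 ± 0.05 SE, adjusted p = 3.76e-09 by edgeR's quasi-likelihood test). HNRNPLL, the paralog of HNRNPL known from CD45 splicing in lymphocytes, had 78.1, 75.7 and 85.6 CPM in sh-ctrl and 62.3, 58.2 and 68.8 CPM in sh-KIF11. The groups did not overlap, and the log2 fold change was -0.34 ± 0.06 (SE, adjusted p = 7.79e-06 by edgeR's quasi-likelihood test) but -0.11 and not called with library totals.

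The most abundant member was HNRNPA1, a classical antagonist of SR proteins in exon choice. It had 1687, 1733 and 1793 CPM in sh-ctrl and 1410, 1504 and 1430 CPM in sh-KIF11, and the groups did not overlap. The log2 fold change was -0.26 ± 0.05 (SE, adjusted p = 6.00e-06 by edgeR's quasi-likelihood test) with TMM, and -0.03 and not called with library totals. On the FPKM scale its means were 560 in sh-ctrl and 518 in sh-KIF11. HNRNPA1L2, a nearly identical gene with a single transcript model, moved the other way and was the sole HNRNP gene called higher with TMM. It had 7.18, 7.04 and 7.11 CPM in sh-ctrl and 9.82, 10.2 and 9.58 CPM in sh-KIF11, from 120 to 212 counts per library (log2 fold change 0.48 ± 0.12 SE, adjusted p = 6.60e-04 by edgeR's quasi-likelihood test). Its coding sequence differed from that of HNRNPA1 at 15 of 960 aligned bases, so the division of reads between both genes is uncertain.

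The other called HNRNP genes, all lower with TMM, were HNRNPA0, HNRNPAB, HNRNPF, HNRNPC, HNRNPUL1, HNRNPK, HNRNPUL2, HNRNPH1, HNRNPU and HNRNPA2B1, at log2 fold changes between -0.27 and -0.13. With library totals none of these 10 was called, and 8 of them turned above 0. HNRNPC, which shields uridine tracts and so keeps Alu elements from being spliced as exons, and HNRNPU, a nuclear scaffold protein, were at 0.05 and 0.09 on that scale. HNRNPA3, HNRNPDL, HNRNPR and HNRNPH3 were not called with TMM, at -0.08, -0.04, -0.02 and 0.05, and were all called higher with library totals. HNRNPUL2 shares 44.1% of its exonic bases with the readthrough model HNRNPUL2-BSCL2 on the same strand, and HNRNPU 15.6% with COX20 on the other strand.

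The remaining 5 HNRNP genes did not pass the filter on low counts. HNRNPCL1, HNRNPCL3 and HNRNPCL4 had 0 counts in all libraries and HNRNPCL2 had 1 count, in sh-KIF11 3. A count of 0 in a library allows up to between 0.145 and 0.178 CPM, the value of 3 counts. The 4 genes are copies of HNRNPC, with 93.1% to 94.7% of 879 aligned coding bases identical to it. HNRNPH2, a splicing regulator that binds G runs, was counted 1, 0 and 2 times in sh-ctrl, compared with 3, 0 and 2 times in sh-KIF11. Its deposited FPKM values, in contrast, were 1.76, 2.41 and 2.08 in sh-ctrl, compared with 4.03, 3.55 and 4.70 in sh-KIF11, without overlap. HNRNPH2 shares 362 exonic bases on the same strand with the readthrough gene RPL36A-HNRNPH2, which had 0 counts in every library but between 64.9 and 78.3 FPKM. The 2 tables therefore disagree on whether HNRNPH2 was detected, and the cause was not tested. HNRNPH1, whose coding sequence matched HNRNPH2 at 86.2% of 1347 aligned bases, was detected in both.

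In GENCODE 29 all 12 SRSF genes have at least 1 transcript annotated as a target of nonsense-mediated decay, against 65.0% of the tested HNRNP genes, 33.3% of the SF3 genes and 43.0% of all tested genes that matched the annotation. The counts are per gene and do not separate those transcripts. Across the 9 SF3 genes the log2 fold change ran against GC content of the transcript (Spearman's rho -0.88), across the 12 SRSF genes rho was -0.56, across the 20 HNRNP genes -0.25, and over all tested genes -0.30. The genes of one library share its depth and base composition, so these are descriptions across genes. SF3B5 and HNRNPL had 56.6% and 55.3% GC, and SF3B1 and SRSF11 had 41.0% and 38.3%. With transcript length, rho was 0.35 across SF3, 0.52 across SRSF, -0.12 across HNRNP and 0.27 over all tested genes. The SF3B5 and SF3B1 transcripts were 693 and 6526 bases long. The part of GC content or transcript length in the changes was not tested. Promoter windows were found for 42 of the 46 members. An E-box (CACGTG, which reads the same on both strands) was present in 8 of them (19.0%), compared with 8.77% of 27305 genes with a window, and CCAAT, read on either strand, in 22 (52.4%) compared with 39.7%. GC boxes were found for 28 members (66.7%) against 48.3% of all genes, and TATAAA for 6 (14.3%) against 14.0%. The 27305 genes were not limited to those tested here, and a gene with several windows counted if any window matched. Whether the members differ from other expressed genes in these motifs was not tested. Of the 8 members that rose in all 7 scalings 1 held an E-box, and of the 6 that fell 2 did.

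**Figure D3:**
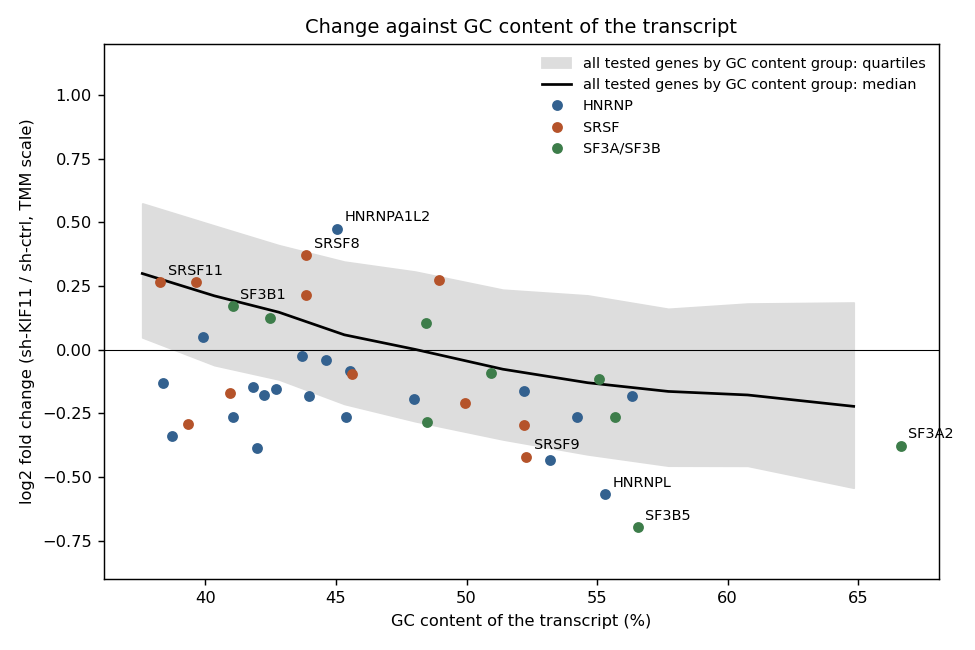
Log2 fold change (y axis, sh-KIF11 over sh-ctrl, TMM scale) against GC content of the transcript in percent (x axis) for 40 tested members, coloured by family, with SRSF12 left out because its value of 3.01 is off the scale. The line and the grey band give the median and quartiles of all tested genes in 10 equal groups by GC content, from a median of 0.30 in the lowest group to -0.22 in the highest; SF3B5 and HNRNPL lie below the band and SF3B1 and SRSF11 lie close to the line.

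The rest of the splicing machinery was described from 10 lists. Of 144 tested genes, 38 (26.4%) were higher and 63 (43.8%) lower with TMM by edgeR's quasi-likelihood test (median log2 fold change -0.10), but 70 (48.6%) were higher and 28 (19.4%) lower with library totals. The latter shares are near those of all tested genes on that scale, 53.5% higher and 19.2% lower, which are also the background for the library-total counts of each list. The Sm core proteins, which form the ring around spliceosomal RNAs, had 0 genes higher and 6 of 8 lower with TMM, and 0 higher and 4 lower with library totals. SNRPB and SNRPF stood at -0.67 and -0.65 in log2 fold change with TMM. Among proteins of the U4/U6.U5 tri-snRNP, the particle that joins before catalysis, 0 were higher and 19 of 23 lower with TMM, but 4 were higher and 8 lower with library totals. LSM2 and LSM4, of the ring that binds U6 RNA, stood at -0.66 and -0.64. SR-related proteins and the kinases that phosphorylate SR proteins were 9 of 17 higher and 1 lower with TMM, and 16 higher and 0 lower with library totals. The kinase CLK4 and the SR-related SREK1 had log2 fold changes of 0.68 each, and TRA2B, the gene called lower at -0.14, turned to 0.09 with library totals.

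Proteins of the hnRNP class under other symbols had 2 of 12 higher and 8 lower with TMM, and 4 higher and 7 lower with library totals. RALY, a close relative of HNRNPC, and the poly(C)-binding PCBP1 stood at -0.59 and -0.55, while the polypyrimidine tract proteins PTBP2 and PTBP3 stood at 0.58 and 0.50. Next to the SF3 complexes, the U2-associated list had 2 of 13 genes higher and 6 lower with TMM, and 6 higher and 2 lower with library totals. PHF5A, a subunit that sits beside SF3B1 in the SF3B complex, stood at -0.58 and PUF60 at -0.46, whereas U2SURP stood at 0.49 and DDX46 at 0.29. In the U1 list 1 of 8 was higher (LUC7L3, 0.42) and 4 were lower, with SNRPA at -0.52 and SNRNP70 at -0.31, and with library totals 3 were higher and 1 lower, SNRNP70 no longer being called. PRP19-related and late-step proteins were balanced with TMM, 8 of 24 higher and 8 lower, but 13 higher and 2 lower with library totals. PRPF18 and CWC22 stood at 0.60 and 0.51, and DHX38 and PRPF19 at -0.39 and -0.38.

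**Figure D4:**
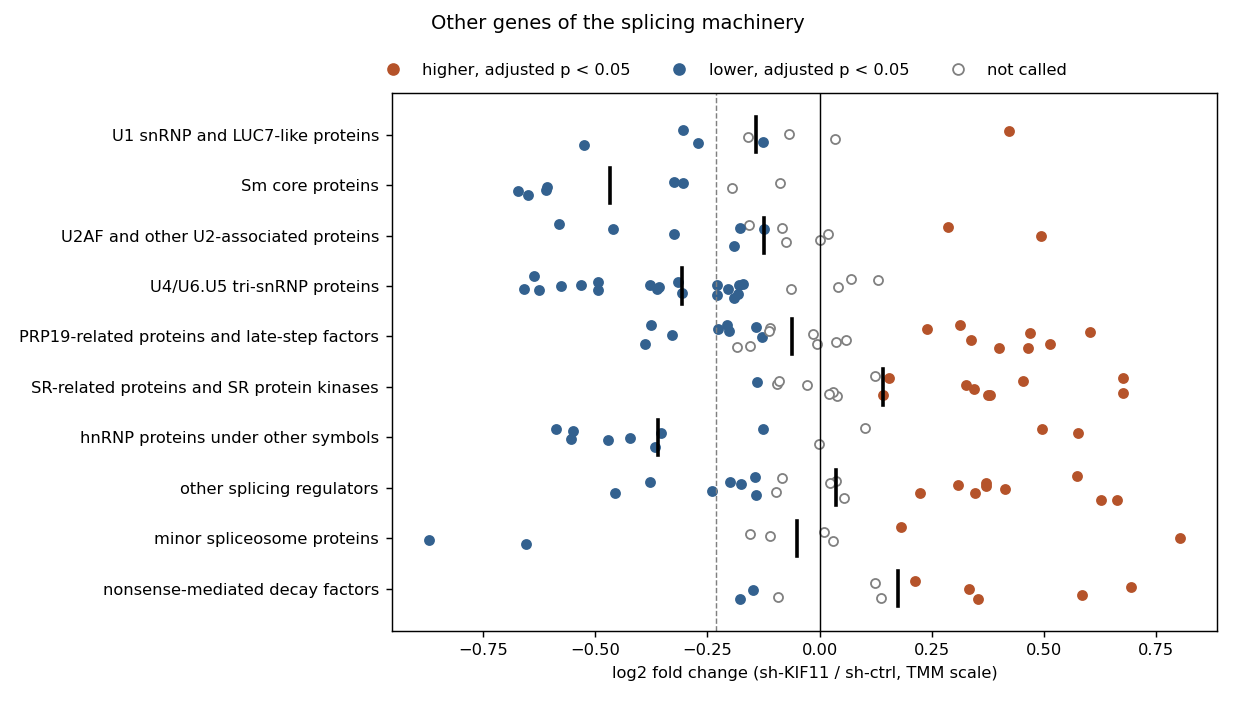
Log2 fold change (x axis, sh-KIF11 over sh-ctrl, TMM scale) of each tested gene in the 10 other lists of the splicing machinery (y axis, points spread vertically for legibility). Colours give the call by edgeR's quasi-likelihood test, thick bars give the median of each list, and the dashed line marks no change with library totals; no Sm core or tri-snRNP gene is called higher with TMM, while 9 genes of the SR-related list are.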

How the data were processed

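HepG2 RNA was sequenced for the authors by a company, Shanghai OE Biotech, from 6 poly(A) libraries (3 sh-ctrl, 3 sh-KIF11) made with a stranded kit. Per the labels, the submitters' processing notes name bcl2fastq 1.8.4, Trimmomatic, HISAT2 2.1.0, HTSeq 0.9.1, Cufflinks 2.2.1 and DESeq, with GRCh38. The authors deposited raw counts per gene and FPKM values per gene, which are scaled to length and library size. In the tables the knockdown columns are named only shRNA and were taken as sh-KIF11, the only hairpin in the labels besides the control.

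Counts were analysed with edgeR 4.0.16 in R 4.3.3: filterByExpr kept 12369 genes and left out 7661, TMM factors were applied, and the quasi-likelihood test had group as its only term, two-sided, with Benjamini-Hochberg adjustment over all tested genes at 0.05. The common biological coefficient of variation was 4.87%. CPM values were TMM-scaled. Alternatives were RLE and upper-quartile factors, library totals, DESeq2 1.42.0, limma 3.58.1 on log2(FPKM + 1) and log2(FPKM + 0.1), no filter, at least 10 counts in every library, a threshold of 0.01, a replicate block and each library left out. The 7 scalings and tools compared in the text were TMM, RLE, upper-quartile, library totals, DESeq2 and the 2 limma fits. With 3 against 3 libraries an exact permutation test cannot go below p = 0.1, so none was used. Procedures were tested on simulated data in which 2-fold changes were balanced between the directions. That setting does not test the choice of scaling.

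Values per library were given for up to 4 called members with the most positive and up to 4 with the most negative change in each family and for the member of highest FPKM, and up to 2 genes per direction were named in each other list. SRSF6, SRSF10 and other members outside this rule were named after their values were seen. The members and lists were chosen with earlier results of these data known. Gene positions came from GENCODE 29 and promoters from RefSeq, and near-identical genes were compared over coding bases, with no protein sequence used here. Some marker and sequence results are not reported here.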

Additional observations from a re-analysis of the deposited data

How the results depend on the processing

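The choice of scaling changed the balance of calls, and no other setting did so to that degree. Scaling by library totals gave 16 members higher and 6 lower, with a median log2 fold change of 0.068, and limma gave 13 higher and 8 lower on log2(FPKM + 1) (median 0.015) and 13 higher and 9 lower on log2(FPKM + 0.1) (median 0.016). Upper-quartile factors gave a median of -0.084. For the other lists the counts became 70 higher and 28 lower with library totals, and 60 higher and 33 lower with either limma fit. Their median became -0.025 with upper-quartile factors, 0.13 with library totals, -0.072 with at least 10 counts in every library, 0.047 on log2(FPKM + 1) and 0.051 on log2(FPKM + 0.1). Leaving out each library gave 8 to 10 members higher and 22 to 26 lower (median -0.18 to -0.14), 36 to 40 genes of the other lists higher and 56 to 64 lower (median -0.12 to -0.093), and KIF11 at -0.79 to -0.69.

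Single genes with a negative log2 fold change on the TMM scale turned positive as follows. With library totals they were HNRNPA2B1 0.10, HNRNPA3 0.15, HNRNPC 0.049, HNRNPDL 0.19, HNRNPF 0.037, HNRNPH1 0.075, HNRNPK 0.051, HNRNPR 0.21, HNRNPU 0.085, HNRNPUL1 0.049, HNRNPUL2 0.068, SF3A1 0.14, SF3B4 0.11, SRSF1 0.021, SRSF2 0.14, SRSF7 0.061, TRA2B 0.092, UPF1 0.052 and SMG5 0.083. On log2(FPKM + 1) and log2(FPKM + 0.1) alike they were HNRNPA2B1 0.017, HNRNPK 0.011, HNRNPR 0.10, HNRNPU 0.016, HNRNPUL2 0.029 and SRSF2 0.12. On log2(FPKM + 1) and then log2(FPKM + 0.1) they were HNRNPA3 0.078 and 0.079, HNRNPDL 0.12 and 0.13, HNRNPH1 0.015 and 0.016, SF3A1 0.088 and 0.091, SF3B4 0.084 and 0.086, SRSF7 0.0066 and 0.0068, TRA2B 0.043 and 0.045, UPF1 0.034 and 0.035 and SMG5 0.048 and 0.049. With upper-quartile factors they were HNRNPDL 0.038 and HNRNPR 0.054. HNRNPR, at -0.02 with TMM, was also at 0.0019 with at least 10 counts in every library and between -0.047 without sh-ctrl replicate 1 and 0.01 without sh-ctrl replicate 3. HNRNPA2B1 lost its call with at least 10 counts in every library and at a threshold of 0.01. It lost the call also without sh-ctrl replicate 2 or sh-KIF11 replicate 3, as HNRNPH1 did, and SRSF7 did without sh-KIF11 replicate 3.

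Libraries of the 2 groups with the same replicate number did not deviate together, with correlations of 0.041, -0.032 and 0.0067. The number was therefore not treated as a pairing, although 3 libraries per group cannot exclude one. Fitted as a replicate block, the number gave 9 members higher and 25 lower. Depth limited the members with few reads, SRSF12 and HNRNPA1L2, and the 5 that did not pass the filter. The limit given for a count of 0 covers counting error only.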

Other observations

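Minor spliceosome proteins, which serve the rare U12-type introns, had 2 of 8 genes higher and 2 lower with TMM by edgeR's quasi-likelihood test, and 3 higher and 2 lower with library totals. RNPC3 had 5.66, 5.71 and 3.79 CPM in sh-ctrl and 7.97, 10.4 and 8.16 CPM in sh-KIF11, without overlap (log2 fold change 0.80 ± 0.15 SE). SNRNP25 had 54.7, 50.5 and 47.6 CPM in sh-ctrl and 30.1, 26.5 and 27.1 CPM in sh-KIF11 (log2 fold change -0.87 ± 0.08 SE), the most negative of the 10 lists. These are different subunits of the same U11/U12 particle, and their groups were separate in opposite directions. ZMAT5 stood at -0.65 and ZCRB1 at 0.18.

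Factors of nonsense-mediated decay, the pathway that degrades the poison-exon transcripts of SR genes, had 5 of 10 genes higher and 2 lower with TMM by edgeR's quasi-likelihood test, and 8 higher and 0 lower with library totals. UPF3B and UPF2 stood at 0.69 and 0.58 in log2 fold change, and UPF1 and SMG5 at -0.18 and -0.15 with TMM but 0.05 and 0.08 with library totals.

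Other splicing regulators had 9 of 21 genes higher and 7 lower with TMM, and 13 higher and 2 lower with library totals. TIA1, which binds U-rich tracts next to weak 5′ splice sites, stood at 0.66 and MBNL2 at 0.63, while its paralog MBNL1 stood at -0.46 and RBM10 at -0.38.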
